A study of Mus musculus with 24 samples.

Results

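Mutant-shared H3K4me1 bins are the stretches of the mouse genome that carried H3K4me1 in both Kdm6a-mutant small cell lung cancer lines and in neither control line. The autosomes were cut into 1 kb bins counted from position 0 of chromosomes 1 to 19. A bin was called marked where merged peaks of a library covered at least 50% of it. Mutant-shared bins were marked in both mutant H3K4me1 lists and in neither control H3K4me1 list. Bins that also gained H3K4me2, meaning H3K4me2 in both mutant lists and neither control list, were left out. The rule gave 6438 bins of 2460688 (0.262%), after 729 of 7167 bins (0.291% of all bins) had been left out for their H3K4me2 gain. The bins were chosen by H3K4me1 (and by H3K4me2 for those left out), so H3K4me1 in them is described without a test, and so is the contrast of H3K4me2 between the genotypes, which the rule also used.

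All 4 lines are early-passage cultures from tumours of the RPP mouse model of small cell lung cancer, whose engineered lesions (Rb1, Trp53 and Rbl2) both groups carry. Lines 236L and 236R came from sgKdm6a tumours (mutant lines) and lines 159-1 and 1014 from sgControl tumours (control lines), and none was treated. Any other difference between the tumours cannot be told apart from genotype. Each line is 1 culture, whether 236L and 236R come from separate animals is not stated, and the genotype rests on the guide alone. Chromatin immunoprecipitation with sequencing (ChIP-seq) peak lists covered 3 histone marks (H3K4me1, H3K4me2, H3K27me3) in each line, and KDM6A itself only in 159-1 and 1014, which makes 14 lists among 24 samples, and the other 10 samples were inputs without a list. H3K4me1 had input libraries of its own in the labels, a batch that holds both genotypes. The sample records give 2 mM DSG, a crosslinker, for the KDM6A libraries alone, so these were prepared otherwise than the histone libraries. They give collection at 24 h for every sample.

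H3K4me1 is the methylation state best known from enhancers, and it also flanks active promoters, where the start site itself carries higher methylation states of the same lysine. H3K4me2 covers promoters and active enhancers more broadly. KDM6A, also called UTX, is a demethylase of H3K27 and belongs to the KMT2C and KMT2D complexes that place H3K4me1 at enhancers, while H3K27me3 is the repressive mark written by the Polycomb complex PRC2.

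The start sites inside the longest mutant-shared runs that also carried H3K4me2 in both control lines are shown first, because many of the bins lay at gene starts that were already marked. Each sequence runs 5′ to 3′ from 250 bases before to 50 after the start site, is taken from RefSeq on GRCm38.p6 (mm10), and has its CpG dinucleotides in capitals. The start sites are those of Gm13286 (chr4:88757594-88757893, plus strand), Gm13283 (chr4:88760524-88760823, plus strand), Vegfa (chr17:46032328-46032627, minus strand) and Hrh1 (chr6:114397686-114397985, plus strand).
Gm13286: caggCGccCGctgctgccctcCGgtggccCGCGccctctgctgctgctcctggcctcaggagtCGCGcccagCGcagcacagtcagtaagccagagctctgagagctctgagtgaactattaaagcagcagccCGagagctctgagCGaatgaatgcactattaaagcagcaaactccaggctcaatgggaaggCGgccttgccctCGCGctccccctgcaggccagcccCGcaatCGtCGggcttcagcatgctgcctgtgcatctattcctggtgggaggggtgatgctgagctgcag
Gm13283: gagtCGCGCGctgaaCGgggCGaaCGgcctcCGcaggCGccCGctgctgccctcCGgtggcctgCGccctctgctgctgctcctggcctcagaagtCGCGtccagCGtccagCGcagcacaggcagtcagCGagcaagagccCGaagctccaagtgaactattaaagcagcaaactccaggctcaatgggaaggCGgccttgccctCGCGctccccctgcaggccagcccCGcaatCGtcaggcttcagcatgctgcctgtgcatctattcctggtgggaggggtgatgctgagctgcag
Vegfa: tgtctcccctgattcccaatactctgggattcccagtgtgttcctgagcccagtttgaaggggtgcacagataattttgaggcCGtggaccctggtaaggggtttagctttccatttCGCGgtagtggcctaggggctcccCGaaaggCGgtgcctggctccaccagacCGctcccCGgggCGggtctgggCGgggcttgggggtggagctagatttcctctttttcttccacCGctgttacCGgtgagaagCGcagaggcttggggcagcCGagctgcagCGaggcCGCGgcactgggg
Hrh1: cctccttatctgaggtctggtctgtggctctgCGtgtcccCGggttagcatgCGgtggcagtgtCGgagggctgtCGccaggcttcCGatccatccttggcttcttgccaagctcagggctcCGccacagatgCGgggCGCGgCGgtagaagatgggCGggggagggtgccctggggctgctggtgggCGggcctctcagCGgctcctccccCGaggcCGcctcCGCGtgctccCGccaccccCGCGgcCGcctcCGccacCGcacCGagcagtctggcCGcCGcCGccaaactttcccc
The 4 windows hold 16, 22, 16 and 28 CpG in that order, against a median of 14 over all 20063 start sites of the table. The windows of Gm13286 and Gm13283 share an unbroken run of 83 identical bases, so reads of these neighbouring genes may not be told apart and their peaks are uncertain. Inside mutant-shared bins lay 676 start sites, with a median of 20 CpG, and 601 of them had H3K4me2 in both control lines, as did 12067 of all 20063 start sites. Start sites with control H3K4me2 and no mutant-shared bin within 2.5 kb had a median of 22 CpG (8892 start sites). The GC box GGGCGG, searched on both strands, stood in 64.2% of the windows inside mutant-shared bins, in 67.4% of those 8892 and in 47.0% of all windows. The shares for the ETS core CGGAAG were 25.2, 30.3 and 21.5% in the same order, and for the TATA letters TATAAA 6.95, 6.02 and 12.7%. A GC box and an ETS core can share bases. For the GC box and the TATA letters, the start sites inside mutant-shared bins lay closer to other start sites with control H3K4me2 than to all start sites, and for the ETS core between the other two sets.

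Line 236L stood apart in H3K4me1. It shared 30725 bins with 236R, which is 27.2% of the bins of 236L and 30.0% of those of 236R. Line 236R had more in common with the control lines, sharing 65683 bins with 159-1 and 65277 with 1014, or 64.0 and 63.6% of its own bins. The 2 control lines shared 85997 bins, which is 77.3% of those of 159-1 and 68.0% of those of 1014. Of the bins that 236L marked and no control line did, 9.32% were also marked in 236R, and of those that 236R marked and no control line did, 26.6% were also marked in 236L. Both mutant lines are therefore needed for what follows. Without 236L the rule gave 23344 bins, of which 32.2% lay at gene ends, and without 236R it gave 64597 bins, of which 23.1% lay at gene ends. Sequencing depth is unknown here, since the files hold peaks and no reads, and the autosomal H3K4me1 cover was 118 and 108 Mb in 236L and 236R against 118 and 134 Mb in 159-1 and 1014. The deposited names of the H3K4me2 lists of the 2 control lines name the other line than their labels do, so for that mark 159-1 and 1014 mean the libraries labelled so, and shares that need both control lines are the same either way.

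Mutant-shared H3K4me1 was mostly short, and in bulk cultures fewer cells with a mark and less of it per cell cannot be told apart. The bins formed 5828 runs, of which 5266 were 1 bin long, 517 were 2, 42 were 3 and 3 were 4. Median cover of a bin was 93.1% in 236L and 77.7% in 236R, and 0% in both control lines, where 159-1 had no H3K4me1 base in 3295 bins and 1014 in 3377. Neither control line had a base in 2271 bins (35.3%). A bin marked in both control lines lay within 1 kb of 1708 bins (26.5%) and within 5 kb of 3248 (50.5%), and on both sides within 5 kb of 961 (14.9%). The peaks were of middling strength. Their median fold enrichment in the authors' own values was 4.58 in 236L and 4.13 in 236R, against 3.85 and 3.88 over all peaks of these lists. Ranked by the deposited p-value instead, they stood at the median 70.1 and 60.5 percentiles of the peaks of each list. By the same ranking, bins with H3K4me1 in all 4 lines stood at the 82.3 and 84.2 percentiles of the same 2 lists. Many bins lay near the 50% threshold. In 2014 of them the lower mutant cover was 50 to 60%, against 2931 just outside at 40 to 50%, and in 1351 the higher control cover was 40 to 50%, against 1717 just outside at 50 to 60%.

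Mutant-shared H3K4me1 lay at genes, and above all at their starts. Of the 6438 bins, 3726 (57.9%, 95% exact binomial interval 56.7 to 59.1) overlapped 2.5 kb around an end of a protein-coding gene, 1436 (22.3%) lay elsewhere in a gene and 1276 (19.8%) between genes. The gene-end share was 40.9% for the 17005 bins with H3K4me1 in all 4 lines, 11.4% for the 25349 bins (1.03% of all bins) with H3K4me1 in both control lines only, and 8.18% for all autosomal bins. It was closer for the 729 bins left out (54.9%) and for the bins with H3K4me2 in both control lines (51.4%). These are single values per set with no test between them, and the interval covers counting error only. Bins next to each other are not independent. With no control H3K4me1 base in the bin the share was 52.9%, and without chromosome 19 it was 57.3%.

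Around the start sites themselves, more mutant-shared bins lay downstream than upstream. Strand was known for 6226 bins (the start-site table used here has none for chromosome 18). Of these, 46.0% were centred within 2.5 kb of a start, against 30.9% of the bins marked in all 4 lines, 3.97% of those marked in both control lines only and 3.58% of all bins. From 0.5 to 2.5 kb downstream of a start lay 1584 bins (25.4%), from 0.5 to 2.5 kb upstream 674 (10.8%) and within 0.5 kb 603 (9.69%). The shares of all autosomal bins in these 3 places were 1.47, 1.35 and 0.763%. Of the bins with H3K4me2 in both control lines 42.1% were centred within 2.5 kb of a start, with 18.6% downstream, 7.26% upstream and 16.2% within 0.5 kb.

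**Figure D1:**
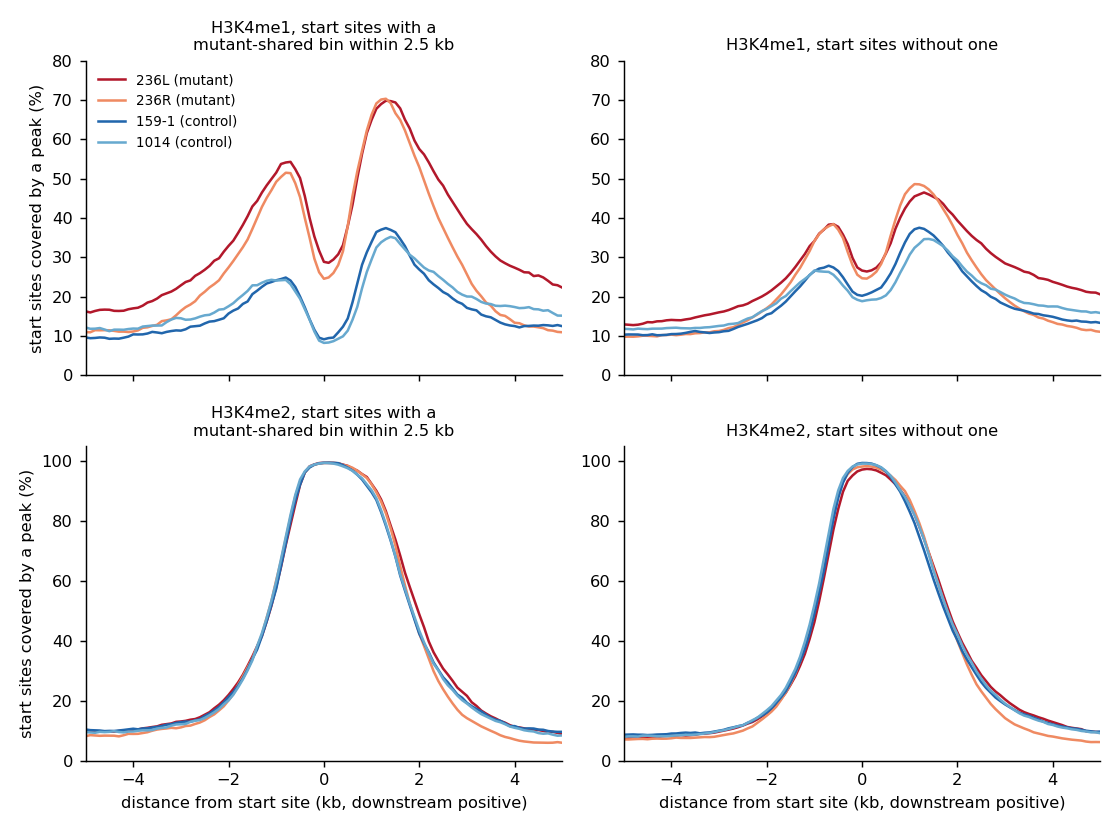
Share of start sites covered by a peak (y axis, %) against distance from the start site (x axis, kb, downstream positive), for H3K4me1 (top) and H3K4me2 (bottom), at start sites with control H3K4me2 that have a mutant-shared bin within 2.5 kb (left) and at those that do not (right), with 1 line per cell line. On the left, H3K4me1 of both mutant lines stands above both control lines on each side of the start, as the choice of bins requires, while the 4 H3K4me2 curves lie close together.

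The profile of H3K4me1 had 2 shoulders with a dip at the start in every line. At the 3175 start sites with control H3K4me2 and a mutant-shared bin within 2.5 kb, H3K4me1 covered 65.0% of sites in 236L and 66.3% in 236R at 1 kb downstream, against 33.9% in 159-1 and 29.5% in 1014. At 1 kb upstream it covered 51.6 and 49.2% in 236L and 236R against 24.2 and 24.1% in 159-1 and 1014, and at the start itself 28.9 and 24.5% against 9.13 and 8.22%. These gaps follow from the choice of bins. Start sites with no mutant-shared bin nearby showed the same order of genotypes 1 kb downstream, with 44.2% in 236L and 47.6% in 236R against 35.96% in 159-1 and 30.7% in 1014. H3K4me2 had the same order of genotypes at 1 kb downstream, with a smaller gap, but not at every distance. At 1 kb downstream of the starts with a mutant-shared bin it covered 92.5 and 92.4% of sites in 236L and 236R against 89.7 and 90.4% in 159-1 and 1014. At 1 kb upstream the groups overlapped (58.1 and 60.3% against 57.5 and 59.9%). At 3 kb downstream 236R, with 14.2%, lay below 159-1 (19.4%) and 1014 (19.1%), and 236L, with 21.7%, above them. At 3141 such starts with an H3K4me2 peak over the start in every line, the median peak was 3.37 and 3.19 kb wide in 236L and 236R against 3.18 and 3.23 kb in 159-1 and 1014, and the groups overlapped. Its median extent downstream of the start was 1.976 and 1.854 kb in 236L and 236R against 1.827 and 1.853 kb in 159-1 and 1014, so that both mutant lines lay above both control lines, 236R only just. The same order held at the starts with no mutant-shared bin nearby (1.84 and 1.803 kb against 1.74 and 1.799 kb), so it was not particular to starts with one.

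H3K4me2 was already present in the control lines at 48.5% of the mutant-shared bins. Both control lines had it in 3120 bins (95% exact binomial interval 47.2 to 49.7%), 1 control line in 707 (11.0%) and neither in 2611 (40.6%). By line, 159-1 had it in 54.1% of the bins and 1014 in 53.8%. Over all autosomal bins, both control lines had H3K4me2 in 2.69%. The share lay below the 63.5% of bins with H3K4me1 in all 4 lines and above the 11.6% of bins with H3K4me1 in both control lines only. By line, the share of bins marked by H3K4me2 differed on average by -16.5 points from the bins marked in all 4 lines (-18.2 in 159-1 and -14.8 in 1014). It was on average 50.7 points higher than over all bins. An exact sign-flip permutation test over 2 lines gives 0.5 for each, the smallest p it can reach, so it cannot decide either difference. Control H3K4me2 also entered the rule through the bins left out, so these shares are a description. The 729 bins left out have H3K4me2 in neither control line by construction, and with them kept the share with it in both was 43.5%. Without 236L the share was 25.8% and without 236R 11.9%.

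**Figure D2:**
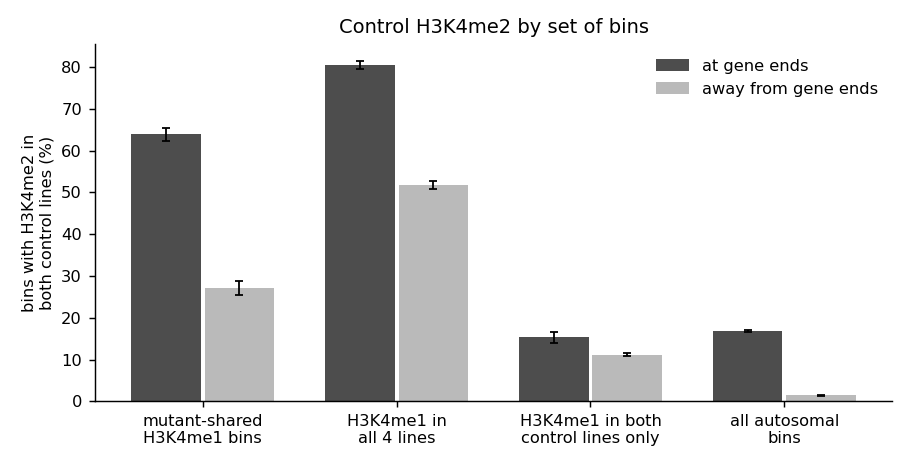
Share of bins marked by H3K4me2 in both control lines (y axis, %, with 95% exact binomial intervals that cover counting error only) for 4 sets of bins, at gene ends (dark) and away from them (light). Mutant-shared bins stand at 64.0% at gene ends and 27.2% away from them, below the bins marked in all 4 lines and above the other 2 sets.

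Control H3K4me2 differed by place. At gene ends 64.0% of the mutant-shared bins (2383 of 3726) had H3K4me2 in both control lines, and away from them 27.2% (737 of 2712). Bins with H3K4me1 in all 4 lines had it at 80.5% at gene ends and 51.8% away, bins with H3K4me1 in both control lines only at 15.3 and 11.2%, and all autosomal bins at 16.9 and 1.42%. Where control H3K4me2 was present, its peaks were strong for their list. Ranked by the deposited p-value, they stood at the median 85.8 and 85.1 percentiles of the 159-1 and 1014 peaks. The bins with no control H3K4me1 base at all had it at 40.03%.

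Mutant-shared bins fell into a few states of H3K4me2 over the 4 lines. All 4 lines had it in 2899 bins (45.0%), and these lay largely at gene ends (77.6%). In 1670 bins (25.9%) no line had it, and only 29.0% of these lay at gene ends, while 37.3% lay elsewhere in genes and 33.7% between genes. In 941 bins (14.6%) 1 mutant line and no control line had it, of which 673 had it in 236L and 268 in 236R. In 381 bins (5.92%) both mutant lines and 1 control line had it, and the remaining 547 had it in a control line and at most 1 mutant line. Mean H3K4me2 cover of the mutant-shared bins was 63.1 and 57.7% in 236L and 236R against 52.1 and 52.2% in 159-1 and 1014. Over all autosomal bins it was lower in both mutant lines, with 3.02 and 2.92% against 3.40 and 3.49%. The H3K4me2 contrast entered the rule through the bins left out, so these covers are a description.

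**Figure D3:**
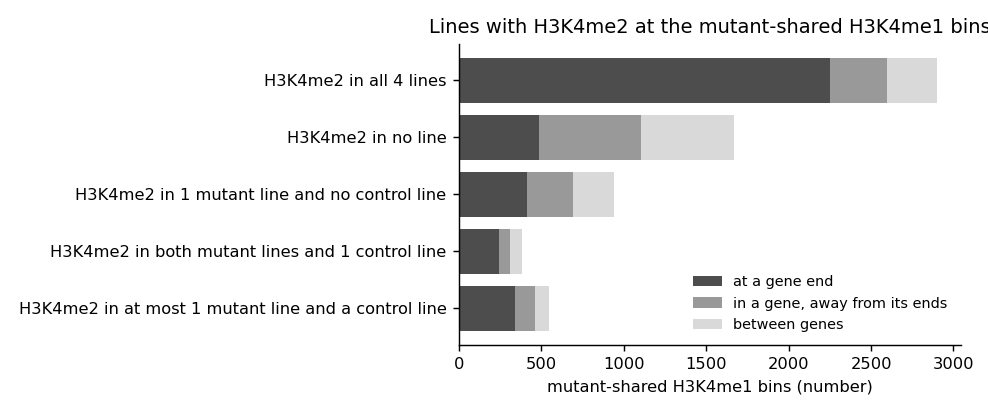
Number of mutant-shared H3K4me1 bins (x axis) in each state of H3K4me2 over the 4 lines (rows), split by place. Bins with H3K4me2 in all 4 lines are the largest group and lie mostly at gene ends, and bins with H3K4me2 in no line lie mostly away from them.

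KDM6A, mapped in the control lines only, was found mainly at the mutant-shared bins that already had H3K4me2, as over the genome at large. Peaks marked 1035 bins (16.1%) in 159-1 and 905 (14.1%) in 1014, and both lines marked 677 (10.5%, 95% exact binomial interval 9.78 to 11.3). Over all autosomal bins the share was 0.656%, in bins with H3K4me1 in all 4 lines 11.7% and in bins with H3K4me1 in both control lines only 1.36%. Of the mutant-shared bins with H3K4me2 in both control lines 21.3% had KDM6A (664 of 3120), close to the 22.1% of all autosomal bins with that mark. Of those with H3K4me2 in neither control line 0.345% had it (9 of 2611), against 1.62% of such bins with H3K4me1 in all 4 lines and 0.0435% of all such autosomal bins. The share changed with how much of a bin a peak had to cover, with 18.1% at 25% cover and 6.64% at 75%, and was 6.97% with peaks of q up to 0.001. Without 236L it was 5.48% and without 236R 3.46%.

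H3K27me3 was uncommon at the mutant-shared bins and, over all of them, gave no separation of the genotypes. It covered on average 6.77% of a bin in 236L and 5.43% in 236R against 6.24% in 159-1 and 10.5% in 1014, so that 236L lay between the 2 control lines. The mutant lines averaged 6.10 ± 0.943% and the control lines 8.37 ± 3.01% (SD, n = 2 each), a difference of -2.27 points that is smaller than the spread of the control lines (exact two-sided permutation test, p = 0.667, where 0.33 is the smallest possible). Over all autosomal bins the difference was -2.28 points (exact permutation p = 0.33), with 0.553 and 1.19% in 236L and 236R against 1.84 and 4.47% in 159-1 and 1014. Without 1014 the difference at the mutant-shared bins turned to 0.81 points, and without 159-1 it was -4.70 points. The difference was -1.38 points with 75% of a bin covered and -3.53 with peaks of q up to 0.001. It was -3.65 with the bins left out kept and -3.98 in bins with no control H3K4me1 base, both without overlap of the groups. Nor did they overlap in mutant-shared bins away from gene ends (4.78 and 5.35% in 236L and 236R against 6.74 and 12.4% in 159-1 and 1014). The same held for all autosomal bins away from gene ends (0.310 and 0.984% against 1.60 and 4.08%). At gene ends the mutant-shared bins gave 8.21 and 5.49% against 5.87 and 9.11%, with overlap. In each of the 4 lines H3K27me3 marked a larger share of the mutant-shared bins than of all autosomal bins. The difference in this share was 4.20 to 6.24 points (exact sign-flip permutation test over 4 lines, p = 0.13, the smallest possible). Against the bins with H3K4me1 in all 4 lines the share marked differed by 0.243 points on average, higher in 3 of 4 lines (exact sign-flip permutation p = 0.625).

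The bins left out for their H3K4me2 gain were another kind of site in H3K27me3. Both control lines had H3K27me3 in 361 mutant-shared bins (5.61%), in 324 of the 729 bins left out (44.4%) and in 1.31% of all autosomal bins. In the bins left out its mean cover was 31.5 and 37.1% in 236L and 236R against 44.8 and 55.4% in 159-1 and 1014, a difference of -15.8 points in which the groups did not overlap (exact permutation p = 0.33, the smallest possible). Within the mutant-shared bins the share with H3K27me3 in both control lines differed by the state of H3K4me2. It was 20.5% where both mutant lines and 1 control line had H3K4me2, 13.2% where 1 mutant line alone had it, 4.61% where no line had it and 2.35% where all 4 had it.

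Of the 20665 autosomal protein-coding genes, 3863 (18.7%) had a mutant-shared bin within 2.5 kb of an end, and 734 had 2 or more. Nearly all of them were genes already marked, since 3699 (95.8%) had H3K4me2 of both control lines at a gene end, as 67.2% of all genes did. Of the 13885 genes with that control mark 26.6% had a mutant-shared bin, and of the 6780 without it 2.42%. Gene lists are therefore read against both shares. With no control H3K4me1 base required the count was 1362 genes, without 236L it was 6606 and without 236R 9697.

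**Figure D4:**
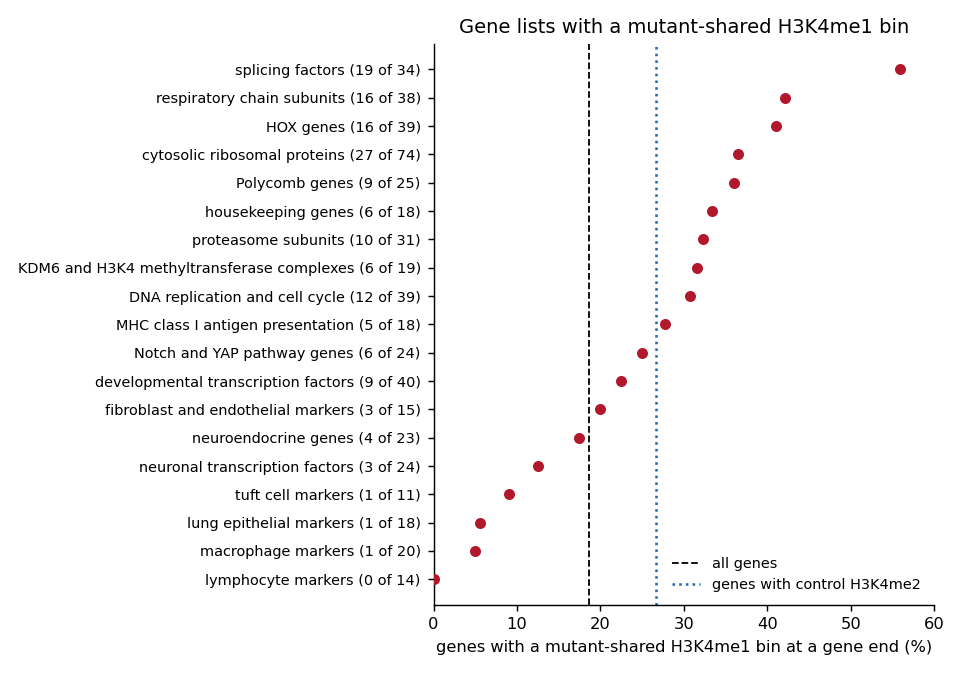
Share of the autosomal genes of each list with a mutant-shared H3K4me1 bin at a gene end (x axis, %), with the counts in the labels. The dashed line is the share of all genes (18.7%) and the dotted line that of genes with control H3K4me2 at a gene end (26.6%), and 10 of the 19 lists lie above both.

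Lists of genes that every cell uses lay above both shares. Splicing factors had one at 19 of 34 genes (55.9%), respiratory chain subunits at 16 of 38 (42.1%), cytosolic ribosomal proteins at 27 of 74 (36.5%), housekeeping genes at 6 of 18 (33.3%) and proteasome subunits at 10 of 31 (32.3%). Of DNA replication and cell cycle genes 12 of 39 had one, of Polycomb genes 9 of 25 and of KDM6 and H3K4 methyltransferase complex genes 6 of 19. At Sf3b2, a subunit of the spliceosome's U2 particle, H3K4me1 covered 6.29 and 5.11 kb of the gene-end windows in 236L and 236R against 0.757 and 2.42 kb in 159-1 and 1014, while H3K4me2 covered 6.71 and 7.34 kb against 7.39 and 6.65 kb. At Rplp0, a protein of the ribosomal stalk, H3K4me1 covered 6.58 and 5.61 kb in 236L and 236R against 2.82 and 3.097 kb in 159-1 and 1014. At Men1, which encodes menin of the KMT2A and KMT2B complexes, it covered 7.24 and 6.49 kb against 1.36 and 3.22 kb. The groups did not overlap at these 3 genes, which the choice of bins favours. Sf3b2 and Men1, and Fau named next, lie on chromosome 19, where the H3K4me1 list of 159-1 was short. It marked 1270 bins there, against 3554 in 1014, so the low values of 159-1 at these genes are uncertain. Further genes with the most bins of their lists were the splicing factors Hnrnpa1, Srsf1 and Prpf4, the ribosomal genes Fau, Rpl12 and Rpl23a, the cytochrome gene Cyc1 and the tubulin gene Tubb5.

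HOX genes held mutant-shared bins with and without control H3K4me2 at their ends. Of 39 HOX genes, which pattern the body axis, 16 (41.0%) had a mutant-shared bin, and 10 of the 16 had no gene-end bin with H3K4me2 of both control lines. Of all 39 HOX genes 11 had that control mark, and 6 of those 11 had a mutant-shared bin. Hoxa7 had H3K4me1 over 4.06 and 3.54 kb in 236L and 236R and none in either control line. Its H3K4me2 covered 3.14 and 2.52 kb in 236L and 236R and 0 kb in both control lines, with H3K27me3 over 7.76 to 7.95 kb in all 4 lines. Hoxa9 likewise had H3K4me1 over 5.22 and 4 kb in 236L and 236R and none in the control lines, with H3K27me3 over 6.93 and 8.28 kb against 8.46 and 9.27 kb in 159-1 and 1014. HOX genes of a cluster are neighbours and can share bins, so their count is not one of separate sites.

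Lists of lineage and signalling genes lay nearer to the shares of all genes. Neuroendocrine genes had one at 4 of 23 (17.4%), namely Insm1, Chga, Calca and Foxa1, neuronal transcription factors at 3 of 24 (12.5%), Notch and YAP pathway genes at 6 of 24, MHC class I antigen presentation genes at 5 of 18 (27.8%) and developmental transcription factors at 9 of 40 (22.5%). Such a bin did not always go with more H3K4me1 over the gene ends. At Chga it covered 2.06 and 5.18 kb in 236L and 236R against 2.58 and 2.62 kb in 159-1 and 1014. At Calca it covered 1.06 and 3.51 kb against 2.93 kb in both control lines. At Insm1 and Foxa1 both mutant lines lay above both control lines. At the cell cycle gene E2f2 both lay below them (1.50 and 2.04 kb against 2.49 and 2.24 kb). At Hes1, a repressor induced by Notch, H3K4me1 covered 5.23 and 5.26 kb in 236L and 236R against 3.59 and 0.843 kb in 159-1 and 1014, and H3K4me2 7.44 and 6.37 kb against 7.44 kb in both. At Sox2, a transcription factor of progenitor cells, H3K4me1 covered 3.02 and 3.44 kb against 0 and 0.725 kb, H3K4me2 3.62 and 3.69 kb against 7.15 and 7.44 kb, and H3K27me3 3.50 and 3.33 kb against 0 kb in both control lines. Sox2 thus gave higher H3K4me1 beside lower H3K4me2 in the mutant lines, and in none of the 3 marks did the groups overlap. The choice of bins favours the H3K4me1 difference, and those in H3K4me2 and H3K27me3 are of a single gene among many and were not tested. At Tap2, a peptide transporter subunit, H3K4me1 covered 2.58 and 3.17 kb against 0.491 and 0.478 kb, and H3K27me3 0 kb in both mutant lines against 1.09 and 4.78 kb.

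Markers of other cell types are set beside the 18.7% of all genes. Macrophage markers had one at 1 of 20 genes (Cx3cr1), lymphocyte markers at 0 of 14, fibroblast and endothelial markers at 3 of 15 (Col1a1, Kdr and Pdgfrb), lung epithelial markers at 1 of 18 (Hopx) and tuft cell markers at 1 of 11 (Dclk1). Defining neuroendocrine genes carried H3K4me2 at a gene end in both control lines at 23 of 23 genes, the cell type of the label, where 67.2% of all genes did. Lymphocyte markers did so at 4 of 14, macrophage markers at 11 of 20, fibroblast and endothelial markers at 6 of 15, lung epithelial markers at 13 of 18 and tuft cell markers at 9 of 11.

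The longest runs with prior control H3K4me2 at a gene end were few and varied. At Hoxb8 and Hoxb7 (chr11:96283001-96287000) H3K4me1 covered 4 and 3.92 kb of the 4 kb in 236L and 236R and 0 kb in both control lines. H3K4me2 covered 3.25 and 4 kb in 236L and 236R against 4 kb in both control lines, KDM6A 3.39 and 4 kb in 159-1 and 1014, and H3K27me3 3.34 and 1.79 kb in 236L and 236R against 0 kb in both control lines. This run kept its H3K4me2 and had H3K27me3 in the mutant lines alone. At Lfng (chr5:140609001-140612000), a glycosyltransferase that modifies Notch receptors, H3K4me1 covered 3 and 2.93 kb against 0 and 0.025 kb, and H3K4me2 and, where mapped, KDM6A all 3 kb in every line. At Vegfa (chr17:46030001-46033000), the angiogenic growth factor whose start site is printed above, H3K4me1 covered 2.15 and 3 kb in 236L and 236R against 0.699 and 0 kb in 159-1 and 1014, with H3K4me2 over all 3 kb in every line. KDM6A covered 2.71 and 2.86 kb there in 159-1 and 1014. These 3 runs lay under H3K4me2 and KDM6A almost throughout in the control lines.

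The other runs of this kind included genes with control H3K27me3. At Gm13286 and Gm13283 (chr4:88757001-88761000) H3K4me1 covered all 4 kb in both mutant lines against 1.48 and 1.31 kb in 159-1 and 1014, and H3K4me2 2.71 and 2.83 kb in 236L and 236R against 2.52 and 2.60 kb in 159-1 and 1014. Beyond the end of Rpl12 (chr2:32966001-32969000, 1.96 kb away) H3K4me1 covered 3 and 1.76 kb against 0.911 and 1.05 kb. The run at Hrh1 (chr6:114397001-114400000), the histamine H1 receptor, also had H3K27me3 in the control lines. It covered 0.495 and 1.88 kb in 236L and 236R against 3 kb in both 159-1 and 1014, beside H3K4me1 over 3 and 2.30 kb against 0.861 and 0.435 kb. At the zinc finger gene Zfp521 (chr18:13970001-13973000) H3K27me3 covered 0.827 and 1.30 kb in 236L and 236R against 1.61 and 3 kb in 159-1 and 1014, and H3K4me2 3 kb in both mutant lines against 2.43 and 3 kb. The other runs lay at Taf6l, a subunit of a histone acetyltransferase complex, at Mei1 and Ccdc134, and at Ndufaf6, an assembly factor of respiratory complex I.

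Away from gene ends, the longest runs mostly lacked H3K4me2 in the control lines. The run nearest Slc22a12 (chr19:6550001-6554000, 6.93 kb away), a urate transporter, had H3K4me1 over all 4 kb in both mutant lines against 0.319 and 0.594 kb in 159-1 and 1014, and at most 0.422 kb of H3K4me2 in any line. Runs 107 and 8.95 kb from Ets2, an ETS transcription factor, had all 3 kb in both mutant lines and at most 0.286 and 0.670 kb in a control line, with at most 0.147 kb of H3K4me2. In Tnfrsf1b, a receptor of tumour necrosis factor, H3K4me1 covered 3 kb in both mutant lines against 0 and 0.828 kb, and H3K4me2 3 kb in 236L and 0 kb in 236R, 159-1 and 1014. Near Cd34, a surface protein of blood progenitors and endothelium, H3K4me1 covered 2.61 and 2.54 kb against 0 kb in both control lines. Runs in Slc31a2, a copper transporter, and near Mfsd13a were of the same length, and of these 2 only the run near Mfsd13a had H3K4me2 in all 4 lines (2.34 and 2.17 kb in 236L and 236R against 2.32 and 2.24 kb in 159-1 and 1014). In Lhx9, a LIM homeobox transcription factor, H3K27me3 covered 0.934 and 0 kb in 236L and 236R against 3 kb in both control lines, and H3K4me2 3 kb in both mutant lines against 1.34 and 1.55 kb. Near Fcgr3 H3K27me3 covered nearly all of a 2 kb run in every line (2 and 2 kb in 236L and 236R against 1.91 and 2 kb in 159-1 and 1014). Near Parp11 it was in the control lines alone (1.65 and 2 kb). The run at Slc32a1, the vesicular transporter of inhibitory transmitters, lay at a gene end instead, and H3K27me3 covered all 2 kb of it in every line.

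Counted over a gene and 10 kb on each side, Prickle2, a planar polarity gene, had the most mutant-shared bins, 14 over a window of 355 kb, then Ubash3b, a phosphatase that restrains receptor signalling, with 10 over 171 kb. Long windows have room for more bins. Orm3, a secreted acute-phase protein, had 8 bins over a window of 23.4 kb. Its gene ends had H3K4me1 over 8.44 and 4.87 kb in 236L and 236R against 0.640 and 1.30 kb in 159-1 and 1014, and at most 0.297 kb of H3K4me2 in any line. Slc22a12 also had 8 bins over 27.2 kb. Vmp1, Aopep, Tpd52 and Tns3 had 7 or 8 bins each, and their gene ends had control H3K4me2.

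Mutant-shared bins were unevenly spread over chromosomes. There were 2.62 per 1000 autosomal bins, with 6.65 on chromosome 19, the highest, and 0.732 on chromosome 3 and 0.874 on chromosome 8, the lowest. On those 2 chromosomes 236R had the shortest H3K4me1 list, but so it did on chromosomes 1, 2, 7, 10, 12 and 16, with 1.38 to 2.53 mutant-shared bins per 1000. It marked 2358 bins of chromosome 3, with 4160 in 236L, against 4132 in 159-1 and 5038 in 1014. On chromosome 8 it marked 3286 bins, with 6779 in 236L, against 7059 in 159-1 and 7917 in 1014. On chromosome 19 the lists themselves differed. H3K4me1 marked 4000 and 3107 of its bins in 236L and 236R against 1270 in 159-1 and 3554 in 1014, so that 1 control line, 159-1, was low. H3K27me3 was also lowest there in 159-1 (491 and 1260 bins in 236L and 236R against 207 in 159-1 and 4306 in 1014), and KDM6A marked 373 bins in 159-1 and 738 in 1014. On the other autosomes, H3K4me1 marked 109967 bins in 159-1, close to the 108904 in 236L, and KDM6A marked more bins in 159-1 (29394) than in 1014 (22914). For H3K4me2 the library labelled 1014 was the low one on chromosome 19 (2469 and 2316 bins in 236L and 236R against 2553 in 159-1 and 1852 in 1014), and this is the mark whose list names cross the labels. The part of the low lists in the counts of chromosomes 3, 8 and 19 was not tested. Without chromosome 19 there were 6030 mutant-shared bins, of which 48.6% had control H3K4me2 and 10.7% KDM6A in both control lines.

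**Figure D5:**
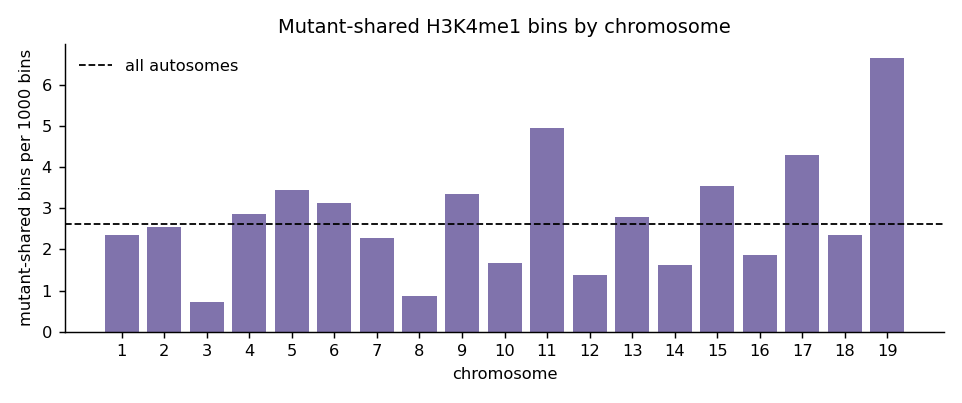
Mutant-shared H3K4me1 bins per 1000 bins (y axis) on each autosome (x axis), with the value over all autosomes as a dashed line. Chromosome 19 has the most, with 6.65, and chromosomes 3 and 8 the fewest.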

How the data were processed

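ChIP-seq peak lists of 14 libraries were used. Reads were aligned with Bowtie2 2.4.2 and broad peaks were called on mm10 (MACS3 3.0.0a7); both tools are named per the submitters' processing notes. No source used here gives the calling threshold, control track or duplicate handling. A list belongs to 1 library and holds a fold enrichment (a linear ratio), a −log10 p-value, a −log10 q-value and a score that the authors deposited for each peak. Peaks were ranked and filtered by them inside single lists alone, and the score was not used. The sequencing depth is unknown.

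Merged peaks gave the covered share of each 1 kb bin (Python 3.11.15, numpy 2.4.6, pandas 2.3.3, scipy 1.17.1), checked on simulated peaks. Autosomal protein-coding genes (20665) and start sites came from NCBI tables of GRCm38.p6. The gene table has no strand, so both ends of a gene were used, and a bin was at a gene end where it overlapped 2.5 kb on either side. Lines were compared as 2 against 2 by an exact permutation test, and sets of bins by an exact sign-flip test over lines. A share of bins carries a 95% exact binomial interval.

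The bins, the 19 gene lists and the comparisons were chosen with earlier results of these data known. Adjacent bins were joined into runs. Named are the genes at the 10 longest runs with a gene end and control H3K4me2, the nearest gene of the 8 longest runs away from gene ends, the 8 genes with the most bins in the gene and 10 kb around it, the genes at the 6 longest runs with control H3K27me3 in at least 50% of their bins, and up to 4 genes per list, with ties going to the stronger peak. Further named genes are all members of a small count. Alternatives covered the share of a bin, the q-value, list length, bin position, the gene-end window and each line left out.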

Additional observations from a re-analysis of the deposited data

How the results depend on the processing

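The number of mutant-shared bins (6438) and of genes with one at a gene end (3863) kept within 1.5 times of these values with 25 or 75% of a bin covered, peaks of q up to 0.001, H3K4me1 lists cut to equal covered length, bins shifted by 500 bases, bins with an H3K4me2 gain kept, and without chromosome 19 (chosen after seeing the data, as were the next setting and the bin centre below). With no control H3K4me1 base in the bin they were 2271 and 1362.

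The gene-end share (57.9%) was 59.3% with 75% cover, 64.2% with peaks of q up to 0.001, 38.6 and 66.9% with gene-end windows of 1 and 5 kb, 52.9% with no control H3K4me1 base and 53.5% by the bin centre. The control H3K4me2 share (48.5%) was 52.8 and 41.4% with 25 and 75% cover, 57.6% with peaks of q up to 0.001, 51.0% at equal covered length, 43.5% with the gained bins kept and 40.03% with no control H3K4me1 base. The KDM6A share (10.5%) was 18.1 and 6.64% with 25 and 75% cover, 6.97% with peaks of q up to 0.001 and 7.44% with no control H3K4me1 base. The other settings moved these shares by less than the counting interval or the spread of the control lines.

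With 1 line left out in turn, mutant-shared bins numbered 9319 to 64597 and genes 4936 to 9697, the gene-end share was 23.1 to 58.5%, the control H3K4me2 share 11.9 to 61.8%, the KDM6A share 3.46 to 15.3% and the H3K27me3 difference -4.70 to 0.81 points. Leaving out a mutant line moved the bins and genes most, to 23344 and 6606 without 236L and 64597 and 9697 without 236R. The H3K27me3 difference changed sign only without 1014. No setting could have passed a test, since 0.33 is the smallest exact permutation p that so few lines allow. No paired analysis was possible because the replicate numbers of the labels do not tie a mutant line to a control line. Unknown depth limits every count, since fewer reads in a library can shorten its list.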
